A study of Mus musculus with 4 samples.

Results

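The NEDD4 family of HECT ubiquitin ligases was followed in cultured mouse germline stem cells in which Nanos2, an RNA-binding protein of spermatogonial stem cells, was switched on. The family has 9 genes here: Nedd4, Nedd4l, Itch, Wwp1, Wwp2, Smurf1, Smurf2, Hecw1 and Hecw2. They were chosen by name: each probe was taken whose gene name, or whose accession's current symbol, is one of the 9, among 27370 gene names on the array. This gave 29 probes, each 60 bases long. A further probe, which the array lists as Gm7265, an older symbol of Nedd4 in RefSeq, is given apart.

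All cells carried the same alleles, a CreERT2 knock-in (spelled Roa-CreERT2 in one label and Rose-CRE-ERT2 in another) and a CAG-CAT-3FlagNanos2-pA construct that makes tagged Nanos2 once the recombinase has acted. The 2 control arrays had RNA of cells given DMSO for 48 hours, and the 2 others had RNA of cells given 4-hydroxytamoxifen (4OHT) for 48 hours. There was no group with the compound but without the construct, so Nanos2, the recombinase and the compound cannot be told apart here. Cells grew on mitomycin-treated embryonic fibroblasts, which were removed before extraction, with GDNF, EGF and FGF2. Whether the replicates of a group were separate cultures is not stated, so each p-value reflects the scatter of these samples alone, which may be technical.

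NEDD4 family ligases are built alike: a C2 domain that binds membranes, several WW domains that hold proline-rich PY motifs of their targets, and at the end a HECT domain whose cysteine carries ubiquitin before passing it to the target. They mark membrane receptors, channels, SMAD proteins and transcription factors for endocytosis or degradation. Adaptor proteins with PY motifs recruit and open them, and phosphorylation with 14-3-3 binding restrains some of them.

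The probe sequences below are shown because the results for Smurf1, Smurf2 and Nedd4 differ between probes of one gene, and because these probes read as coding sequence of the HECT domain. They are 60 bases each, 5′ to 3′, from the deposited files, with coordinates on mm9. The Smurf1 probe (chr5:145640319-145641546, minus strand, covering 1228 bases of genome and so crossing a splice junction) has 1 frame free of stop codons. In that frame the codon at probe positions 52 to 54, in capitals, encodes the cysteine that carries ubiquitin in HECT ligases. The Smurf2 probe lies at chr11:106700536-106700595, minus strand, and the Nedd4 probe at chr9:72590466-72590525, plus strand. They have no capitals. Each of them has 2 frames free of stop codons, and the frame read as coding (3 for Smurf2, 1 for Nedd4) was chosen by hand. No mm9 annotation was used here, so the exon or untranslated region of the other probes was not determined.
Smurf1: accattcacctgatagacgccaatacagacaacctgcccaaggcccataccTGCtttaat
Smurf2: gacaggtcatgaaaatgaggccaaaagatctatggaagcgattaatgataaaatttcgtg
Nedd4: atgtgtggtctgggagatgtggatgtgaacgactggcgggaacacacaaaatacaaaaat

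Each array held 43379 spots, of which 62.1% to 65.9% were well above background, and none was saturated (0 on each array). A single slide and scan, 1 of each, held the whole set. The Nanos2 probe read 353 and 352 in DMSO and 904 and 1070 in 4OHT, a log2 difference of 1.55 ± 0.10 (SE, limma adjusted p = 0.000868). Of 14 measured germ cell markers 9 were lower and 2 higher (all features: 29.3% lower and 40.3% higher), with a median log2 difference of -0.79. Their summed level, to which the brightest genes contribute most, was 186 and 184 in DMSO and 172 in each 4OHT array, in units of the array's 75th percentile. Fibroblast markers were higher in 29 of 30 cases (summed level 457 and 524 against 908 and 861). Transcripts of fibroblast markers were thus present in DMSO too, although the feeder cells were removed. Of 14 macrophage and blood markers 9 were higher and 5 did not pass. Their summed level (16.8 and 18.6 against 36.4 and 37.3) came mostly from Lyz2, and Itgam, Cdh5 and Spi1 were below the filter. Of 8 Sertoli and Leydig markers 5 were higher and 2 lower (5.45 and 6.06 against 12.3 and 11.7), with Amh, Fshr, Gata4, Cyp11a1 and Hsd3b1 below it. The part of these other cell types in the results below was not tested, and in bulk RNA fewer cells of a type and less RNA per cell cannot be told apart.

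Signals are given first as Agilent processed signals, linear and background-subtracted, for DMSO and then 4OHT replicates 1 and 2. Differences are log2 values, 4OHT minus DMSO, after each array was scaled to its 75th percentile, with the standard error that limma gives; each group has 2 arrays. A gene is represented by its brightest probe well above background on at least 2 arrays, and passes at a limma adjusted p (Benjamini-Hochberg over 17537 features) under 0.05. Brightness is the mean over all 4 arrays, 4OHT included, and levels of different probes are not compared otherwise. By this rule 8 of the 9 members could be tested: 6 were higher, 1 was lower and Smurf1 did not pass. In DMSO alone another probe was brighter for Nedd4, Hecw2 and Smurf1. Those probes were at 0.32 (not passed), -0.41 (lower) and -1.24 (lower), so the members' counts and median depend on this rule. Of all features 69.5% passed, 40.3% as higher and 29.3% as lower, so most genes of the array passed, as did 7 of these 8. The median difference of the 8 members was 0.46, against 0.11 for all features.

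Nedd4, the founding member, which marks growth factor receptors and channels, had the largest difference among the brightest probes of the 8 tested members. Its brightest probe read 7614 and 8025 in DMSO and 13085 and 13260 in 4OHT. Both 4OHT arrays lay well above both DMSO arrays, and this probe rose 1.77-fold (0.82 ± 0.06, limma adjusted p = 0.00110). Another bright Nedd4 probe was at 0.32 and did not pass. The mean of the Nedd4 probes did not pass either (0.32, limma adjusted p = 0.0585). Nedd4l is the closest relative of Nedd4 and known for removing the epithelial sodium channel from the membrane. It has 1 probe, on chromosome 18, which read 84.9 and 84.6 in DMSO and 120 and 133 in 4OHT. The groups did not overlap and Nedd4l rose 1.56-fold (0.64 ± 0.08, limma adjusted p = 0.00315), or by 0.41 with normexp background correction.

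Itch, Wwp1 and Wwp2 form another branch of the family, and their rises were 0.44 to 0.47 on the log2 scale. Itch, a ligase for JUN proteins and p63 that restrains T cell responses, read 1291 and 1336 in DMSO and 1823 and 1620 in 4OHT (0.46 ± 0.09, limma adjusted p = 0.0105). Wwp1, a ligase for KLF5 and other transcription factors, read 2430 and 2613 against 3376 and 3274 (0.47 ± 0.07, adjusted p = 0.00515). Wwp2, which ubiquitinates the pluripotency factor OCT4, read 16341 and 15631 against 20418 and 20827 (0.44 ± 0.07, adjusted p = 0.00548). In all 3 genes both 4OHT arrays were above both DMSO arrays. Itch had 3 further probes, none of them well above background on more than 1 array, and they were not tested.

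Smurf1 and Smurf2 turn over SMAD proteins and TGF-beta family receptors. Smurf2 read 743 and 730 in DMSO and 561 and 523 in 4OHT on its brightest probe, so that the 4OHT arrays were the lower ones. The log2 difference was -0.37 ± 0.07, a 1.30-fold fall (limma adjusted p = 0.0110). Without 4OHT replicate 2 this probe's difference was -0.32 and did not pass (adjusted p = 0.0540, range 0.00249 to 0.0540 over the alternatives). The brightest Smurf1 probe read 451 and 419 in DMSO and 408 and 464 in 4OHT. The groups overlapped, and the difference of 0.07 ± 0.10 did not pass (adjusted p = 0.552), with a 95% interval of -0.20 to 0.34.

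Hecw1 and Hecw2 are the large members known from neurons, and HECW2 stabilises p73. Hecw2 read 116 and 120 in DMSO and 165 and 151 in 4OHT on its brightest probe, without overlap. This probe rose 1.40-fold (0.49 ± 0.08, limma adjusted p = 0.00605), whereas the other Hecw2 probes were at -0.41 and 1.04. Hecw1 was not tested: of its 5 probes, 4 were not well above background on any array, and the fifth was so only in DMSO replicate 1, at 42.4 against 3.71, 3.03 and 3.94 on the other arrays.

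**Figure D1:**
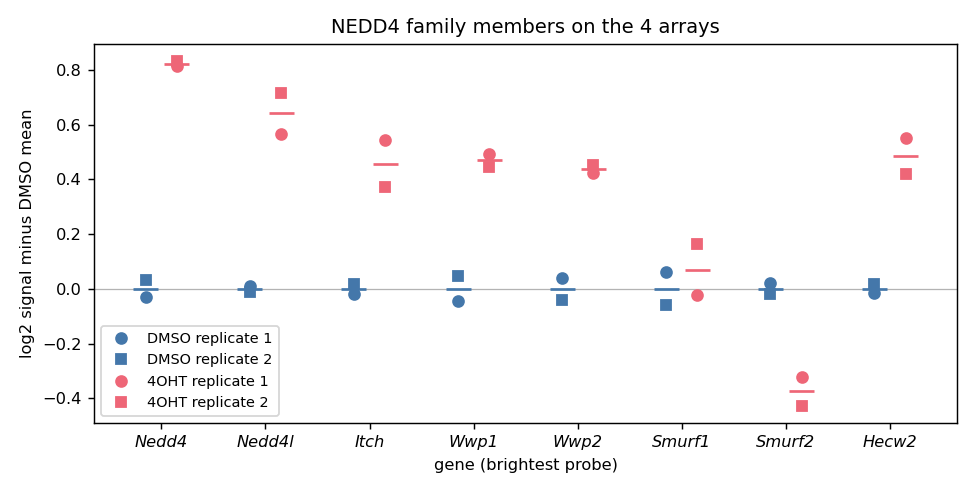
Log2 signal of the brightest probe of each tested member on the 4 arrays, relative to the mean of the DMSO arrays (y axis), with genes on the x axis, 1 point per array and short lines at the group means. The 4OHT arrays lie above DMSO for Nedd4, Nedd4l, Itch, Wwp1, Wwp2 and Hecw2, below it for Smurf2, and overlap it for Smurf1.

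DMSO and 4OHT arrays were fully separated for 7 of the 8 members, as they were for 86.5% of all features. The smallest two-sided p of an exact permutation test is 0.333 for groups of 2, so the p-values depend on limma's sharing of spread across genes. The size of the rises depends on the scaling. The median of all features was 0.11 in the main setting and -0.04 when the arrays were scaled on spike-in probes, and the median member then stood at 0.32. With spike-in scaling 2 members were higher (Nedd4 and Nedd4l) and 1 was lower (Smurf2), where 55.1% of all features passed, 27.7% as higher and 27.4% as lower. Itch (0.31, limma adjusted p = 0.218), Wwp1 (0.32, adjusted p = 0.200), Wwp2 (0.29, adjusted p = 0.252) and Hecw2 (0.34, adjusted p = 0.177) kept their direction and did not pass. The standard error was 0.22 for every member with spike-in scaling, against 0.06 to 0.10 in the main setting. Median scaling gave 5714 higher and 6663 lower features, against 7059 and 5136 in the main setting, and kept all 7 members' calls, with Itch, Wwp1, Wwp2 and Hecw2 at 0.26 to 0.30.

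**Figure D2:**
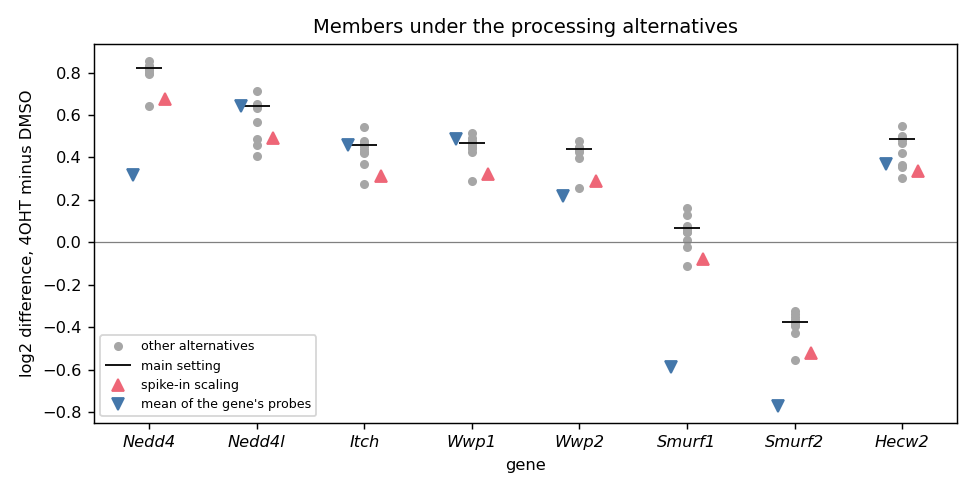
Log2 difference, 4OHT minus DMSO, of each tested member (y axis, genes on the x axis) in the main setting and under 14 processing alternatives, with triangles for spike-in scaling (pointing up) and for the average over a gene's probes (pointing down). Spike-in scaling lowers every member, and the mean of the probes moves Nedd4 to 0.32 and Smurf1 to -0.59.

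The 20 member probes that passed the filter on dim signals, out of 29, were then compared one by one, with p-values adjusted over 26392 probes. Of these 20, 10 were higher, 5 lower and 5 did not pass, where 67.3% of all probes passed, 36.2% as higher and 31.1% as lower. With spike-in scaling 4 were higher and 5 lower, in a setting where 55.1% of all features passed at the gene level, against 69.5% in the main setting. The share over all probes with spike-in scaling is not given here. Probes of one gene share its transcript and are not replicates. They fell into genes whose probes went one way and genes whose probes did not.

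All 3 Smurf2 probes fell, and their mean fell by 0.77 (limma adjusted p = 0.00270). The probe shown above, the most 5′ of them, read 584 and 535 in DMSO and 314 and 249 in 4OHT (-0.93 ± 0.14, limma adjusted p = 0.00587). The middle probe read 414 on both DMSO arrays and 201 and 192 in 4OHT, about the same change with a smaller error (-1.01 ± 0.07, adjusted p = 0.00101). The brightest probe, the most 3′ and 1523 bases further along the genome, showed the smallest fall; adjusted over probes, it did not pass without DMSO replicate 1 (-0.35), without 4OHT replicate 2 (-0.32) or with no filter on dim probes (adjusted p = 0.0545). The 3 kept Wwp1 probes all rose, by 0.28 ± 0.09, 0.47 ± 0.07 and 0.71 ± 0.07 from 5′ to 3′, the last by 0.47 with normexp. The first of these, on a dim probe (97.1 and 91.0 against 113 and 104), passed narrowly (adjusted p = 0.0441) and did not pass under 11 alternatives, among them each replicate left out (0.22 to 0.34). The remaining Wwp1 probe was not well above background on any array.

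Smurf1 had 2 probes that differed. The probe over the catalytic cysteine codon, shown above, read 476 and 441 in DMSO and 148 and 231 in 4OHT. Both 4OHT arrays were far below DMSO, and this probe fell by 1.24 ± 0.24 (limma adjusted p = 0.0111). The other probe, starting 2860 bases further 3′ on the genome, is the brightest one described before, at 0.07. Taken within each array, the difference between the probes changed by -1.31 ± 0.17 (limma over 8855 probe pairs, adjusted p = 0.00917), a value that no scaling of whole arrays can alter. Of all pairs of a gene's probes 36.0% passed this test. Averaging both Smurf1 probes gave -0.59, which passed (adjusted p = 0.0337), so the call for Smurf1 depends on which probe stands for the gene.

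Hecw2 had probes called in opposite directions. Its most 5′ probe (chr1:53987677-53987736), designed on another RefSeq accession than the rest, read 144 and 134 in DMSO and 93.8 and 105 in 4OHT, a fall of 0.41 ± 0.10 (limma adjusted p = 0.020). The probe 119231 bases downstream is the one that rose by 0.49, and the most 3′ probe read 29.0 and 44.0 in DMSO and 73.8 and 66.2 in 4OHT (1.04 ± 0.22, adjusted p = 0.0157). The 5′ probe changed by -0.90 ± 0.14 relative to the brightest probe (adjusted p = 0.0128). The fall did not pass without DMSO replicate 1 (-0.35), without 4OHT replicate 1 (-0.33) or with no filter on dim probes (adjusted p = 0.0673), and was -0.26 with normexp. The rise of the most 3′ probe did not pass without 4OHT replicate 1 (0.96) or 2 (1.12), and was 0.40 with normexp. The direction of Hecw2 therefore depends on the probe, and the mean of its probes rose by 0.37 (limma adjusted p = 0.0204).

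In Nedd4 the probe shown above, over the HECT domain, read 7597 and 8189 in DMSO and 10247 and 8538 in 4OHT. The groups did not overlap, but the lower 4OHT array stood close to DMSO, and the difference of 0.32 ± 0.12 did not pass (limma adjusted p = 0.0730, 95% interval -0.0040 to 0.64). It passed with normexp (0.29, adjusted p = 0.0263), with an intensity trend (adjusted p = 0.0131) and without 4OHT replicate 2 (0.45, adjusted p = 0.0385), and was 0.18 without 4OHT replicate 1, 0.13 with median scaling and 0.17 with spike-in scaling. The main difference was 0.51 ± 0.13 below that of the brightest Nedd4 probe, 6840 bases further 3′ (adjusted p = 0.0402); this gap did not pass with any one of DMSO replicate 1 (-0.52), DMSO replicate 2 (-0.49) or 4OHT replicate 2 (-0.37) left out, nor with a replicate block (adjusted p = 0.0616). The probe listed as Gm7265, 47761 bases upstream, read 312 and 385 in DMSO and 328 and 255 in 4OHT and did not pass (-0.19 ± 0.17, adjusted p = 0.382). The rise of Nedd4 did not pass when its probes, this one included, were averaged (0.32, adjusted p = 0.0585).

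Wwp2 has 5 probes, all well above background on all arrays. The neighbouring probes at chr8:110080871-110080930 and chr8:110081041-110081100 rose by 0.45 ± 0.07 and 0.44 ± 0.07. The probe 964 bases further 3′ read 980 and 994 in DMSO and 802 and 946 in 4OHT (-0.11 ± 0.10, limma adjusted p = 0.399, 95% interval -0.39 to 0.18). It changed by -0.55 ± 0.11 relative to the brightest probe (adjusted p = 0.0253), which did not pass without DMSO replicate 1 (-0.59), DMSO replicate 2 (-0.50) or 4OHT replicate 1 (-0.44). The 2 upstream probes were at 0.22 ± 0.10 and 0.09 ± 0.12 and did not pass. Averaging the Wwp2 probes gave 0.22, which passed narrowly (limma adjusted p = 0.0487).

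**Figure D3:**
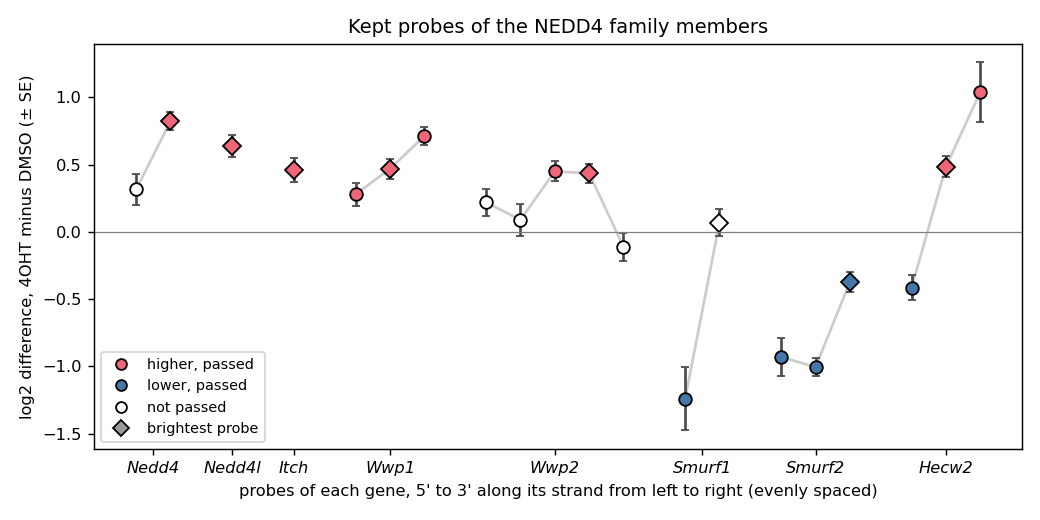
Log2 difference, 4OHT minus DMSO, with its standard error (y axis) for each of the 20 member probes that passed the filter, in 5′ to 3′ order within each gene on the x axis, evenly spaced. Smurf2 and Wwp1 probes go one way within each gene, whereas Smurf1 runs from -1.24 to 0.07 and Hecw2 from -0.41 to 1.04.

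In 5 of the 6 members with several kept probes (Nedd4 with the Gm7265 probe) the most 3′ probe had the higher difference of the outermost pair, Wwp2 being the exception. The same order was frequent over the array. Among 6228 genes with at least 2 kept probes on 1 strand, the most 3′ probe had the higher difference in 73.1%, with a median gap of 0.23 on the log2 scale. The gap was 1.45 in Hecw2, 1.31 in Smurf1, 1.01 in Nedd4, 0.56 in Smurf2, 0.43 in Wwp1 and -0.33 in Wwp2. The part of probe position in the members' values was not tested.

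The other HECT ligases, which lack the C2 and WW arrangement, were mostly lower. Against 29.3% lower and 40.3% higher among all features, 11 of 17 were lower, 2 higher and 4 did not pass (median -0.27). Leaving out any one array brought the calls from 13 to between 6 and 8, and spike-in scaling gave 5 lower and 1 higher. Herc1, a giant ligase with RCC1 repeats, read 2351 and 2213 in DMSO and 1278 and 1301 in 4OHT, without overlap (-0.75 ± 0.07, limma adjusted p = 0.00154), and 2 of its other 3 kept probes fell too. Huwe1, which controls MYC, MCL1 and p53 turnover, fell by 0.57 ± 0.07, and its 4 other kept probes fell by 0.75 or more. Hace1 fell by 0.64 ± 0.08, with a second probe at -1.35. Herc6 fell by 0.94 ± 0.13 (1.91-fold) on a dim probe, which read 36.8 and 39.1 in DMSO and 16.9 and 21.1 in 4OHT. This probe was not well above background in 4OHT, so the size of the fall is uncertain. The second Herc6 probe was at 0.10. With normexp background correction, where the brightest probe is chosen anew and may be another one, Herc6 was at 0.04. Hectd4 was the largest rise (1.08 ± 0.09, adjusted p = 0.00132), though its other probes were at 0.56 and -0.78 and their mean did not pass (0.29, adjusted p = 0.194). These counts stand beside the 6 higher and 1 lower among the NEDD4 family, which depend on the probe chosen for Nedd4, Hecw2 and Smurf1. The lists were not tested against each other.

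Adaptors and partners with PY motifs bring NEDD4 ligases to their targets. Of these 20 genes 14 passed, 10 as higher and 4 as lower (median 0.28), near the 69.5% of all features. Ldlrad4, which binds NEDD4 family ligases and dampens TGF-beta signalling, read 635 and 708 in DMSO and 1867 and 1808 in 4OHT. It rose 2.88-fold (1.52 ± 0.08, limma adjusted p = 0.000612), and a second probe rose by 1.70. Its relative Pmepa1 rose by 1.09 ± 0.10, with a second probe at 0.47. With normexp, where the brightest probe is chosen anew and may be the other one, Pmepa1 was at 0.40. The arrestin-like Arrdc4 (1.29 ± 0.07) and Txnip (0.88 ± 0.06), an ITCH target that limits glucose uptake, were higher, but second probes were at 0.06 and 0.24 and did not pass, and the means of the probes were 0.68 and 0.56. The lysosomal protein Laptm4b rose by 1.01 ± 0.06, and its second probe by 0.84. Among adaptors chosen here after their values were seen, Ndfip1, the main activator of ITCH and NEDD4, was at 0.24 and passed, Ndfip2 at 0.20 did not, and Smad7, which carries SMURF ligases to receptors, was lower at -0.65. Fibroblast markers had a median of 0.91 in the same arrays.

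Kinases, 14-3-3 proteins and the deubiquitinase that act on these ligases went both ways, 6 of 16 higher and 6 lower (median 0.13). With spike-in scaling 2 were higher and 4 lower. Over all features 40.3% were higher and 29.3% lower, or 27.7% and 27.4% with spike-in scaling. The SGK kinases, which phosphorylate NEDD4L and so keep it from its targets, diverged. Sgk3 read 1366 and 1414 in DMSO and 490 and 479 in 4OHT and fell by 1.45 ± 0.06 (limma adjusted p = 0.000472), with a second probe at -1.22. Sgk2 read 103 and 109 in DMSO and 271 and 281 in 4OHT and rose by 1.45 ± 0.07 (adjusted p = 0.000518). Sgk1 rose by 0.58 ± 0.06, but with spike-in scaling it was at 0.44 and did not pass (adjusted p = 0.0757). Abl1, a tyrosine kinase, rose by 0.93 ± 0.08, with a second probe at 0.41 that did not pass. The 14-3-3 gene Ywhae fell by 0.73 ± 0.07, and its second probe by 0.89.

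Among ubiquitin genes and the E1 and E2 enzymes that load the ligases, 4 of 13 were lower and 1 higher (median -0.10). Of all features 29.3% were lower and 40.3% higher. Ube2e3 fell by 1.11 ± 0.07 (limma adjusted p = 0.000835), Ube2d2a by 0.71 ± 0.06 and Ube2e1 by 0.57 ± 0.07. Ube2l3, the E2 used by many HECT ligases, fell by 0.65 ± 0.08 on its brightest probe, but its other probe rose by 0.52, and the mean of the probes did not pass (-0.07, adjusted p = 0.409). Ube2d1, on a dim probe that read 41.5 and 51.3 in DMSO and 69.7 and 96.8 in 4OHT, rose by 0.90 ± 0.20 (adjusted p = 0.0184) and did not pass without 4OHT replicate 2 (0.67, adjusted p = 0.0528) or with no filter on dim probes (adjusted p = 0.0562); with normexp it was at 0.48.

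Genes of reported substrates were split evenly, 12 higher and 13 lower of 39 measured (median -0.07). With spike-in scaling 7 were higher and 13 lower, and with median scaling 11 and 18. Among all features 40.3% were higher and 29.3% lower, or 27.7% and 27.4% with spike-in scaling. Pou5f1, which encodes the WWP2 target OCT4, read 773 and 630 in DMSO and 170 and 201 in 4OHT and fell by 1.85 ± 0.15 (limma adjusted p = 0.00121). Ezh2, a histone methyltransferase that SMURF2 can mark, fell by 1.77 ± 0.07. The SMURF target Runx2 rose by 1.37 ± 0.13, with a second probe at 1.33. The ITCH target Trp63 was not well above background in DMSO. In the main setting its rise was 2.55-fold when DMSO was set at the lowest signal well above background. With normexp the rise of Trp63 was 0.53 on the log2 scale. These are transcript levels, and the proteins that the ligases act on were not measured.

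**Figure D4:**
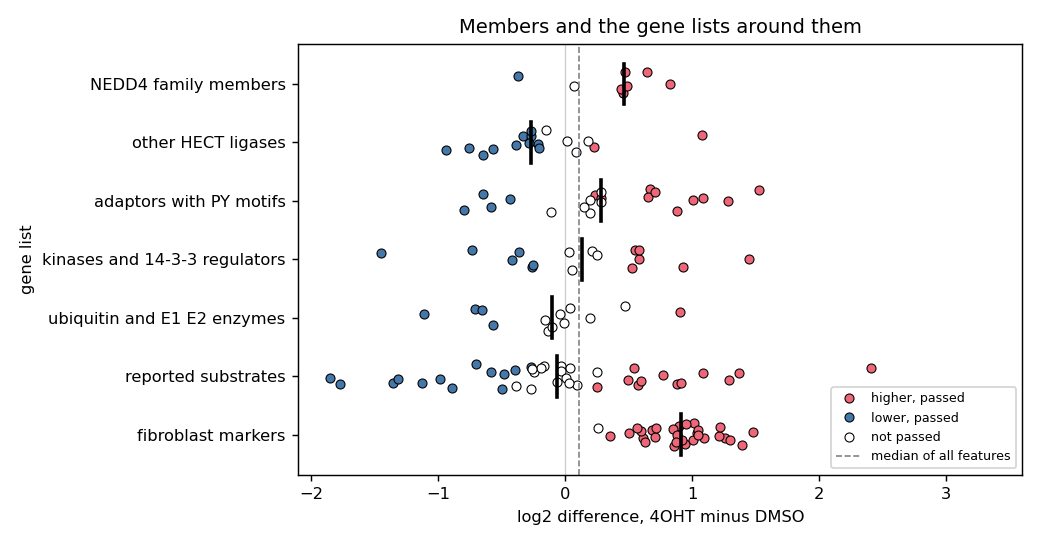
Log2 difference, 4OHT minus DMSO (x axis), of every measured gene in the NEDD4 family, in the 5 lists around it and among fibroblast markers (y axis), 1 point per gene with the list's median as a bar and the median of all features, 0.11, as a dashed line. The NEDD4 family median lies at 0.46 and that of the other HECT ligases at -0.27.

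Genes whose 4 values, centred on their mean, lay closest to those of a member were found among 13985 features well above background on all 4 arrays. For Nedd4 these were Lonp2, Enpp5 and Ccsap, at root mean square distances of 0.0028, 0.0070 and 0.0083 on the log2 scale. For Smurf2 they were Hexim1 (0.0057), Ap2b1 (0.0092) and Tbl1x (0.013). With 4 arrays, such likeness says little beyond an equal difference between the groups.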

How the data were processed

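RNA was measured on 4 one-colour Agilent arrays of design 014868 (Cy3). Per the file headers, the deposited intensity values, background-subtracted and detrended within each array, came from Feature Extraction 10.7.3.1; the submitters' processing notes name 9.5. Flags from the deposited files are 0 or 1. The deposited value table of log2 values differed from the log2 processed signal by an array-wide constant (0.290, 0.275, 0.362 and 0.356); its column medians were 6.16, 6.18, 6.35 and 6.35, and it served as an alternative.

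Control and outlier spots were left out, log2 processed signals were set relative to each array's 75th percentile, spots of a probe were averaged, and a probe was kept if at least 2 of the 4 arrays had it well above background. Gene names are RefSeq's (GRCm38.p6 table, which named 33636 of 41174 probes) or else the array's. Positions are the array's own, on mm9. The test was limma 3.58.1 under R 4.3.3 (lmFit, eBayes, group as the only term, Benjamini-Hochberg, threshold 0.05). It was checked on simulated data in which few features changed and no scaling was applied. The check therefore does not cover the array scaling or a setting where most features pass. The number of arrays limits the precision. Within-array differences between a gene's probes were fitted likewise, a test chosen after the data were seen.

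The members and lists were chosen with earlier results of these data known. Named genes are the members, Nanos2 and, in each pathway list, up to 5 passing genes with the largest difference, plus the 3 genes most like the members with the largest rise and fall; others are said to be chosen afterwards. A substrate gene that the rule names is not reported here. Replicate numbers do not pair the samples: the labels name no shared culture, and the correlation of deviations was -0.045. Alternatives covered background correction, scaling, dim-probe filter, probe averaging, an intensity trend, a replicate block and each array left out.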

Additional observations from a re-analysis of the deposited data

How the results depend on the processing

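The 8 tested members kept their direction under all 14 alternatives except Smurf1, which did not pass in the main setting, was between -0.11 and 0.16 in the others, and fell by 0.59 (limma adjusted p = 0.0337) when its probes were averaged. Nedd4l passed in every alternative. Spike-in scaling brought the counts of calls to 3 members (main 7), 9 member probes (main 15), 6 other HECT ligases (main 13) and 6 kinases and 14-3-3 regulators (main 12), in a setting that called 9659 features against 12195. The other HECT ligases also came to 6 calls with no filter on dim probes, to 6 with a replicate block, and to 6 to 8 without 1 array. With the replicate block, 7 members and 11047 features passed. Herc6 was at 0.041 with normexp, where the brightest probe is chosen anew and may be another one. Leaving out 1 array gave 10021 to 11426 features, 6 to 7 members, 12 to 14 member probes, 10 to 13 adaptors, 8 to 11 regulators, 4 to 6 ubiquitin and E1 or E2 genes and 21 to 25 substrates. The cause of these changes was not tested. Signals of Hecw1 were too close to background for any statement on its level.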
